A study of Mus musculus with 6 samples.

Results

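The vacuolar proton pump and cathepsin genes were taken from a lung RNA sequencing matrix by symbol, as every entry starting with Atp6v0 or Atp6v1, the pump accessory genes Atp6ap1 and Atp6ap2, and every cathepsin named by Cts and a single letter. This gave 45 of the 56980 entries, 27 for the pump and 18 for cathepsins, and 36 of them reached a mean of 1 TPM (a transcript level per length, scaled to the same total in every library) and were tested. The libraries came from lungs of immunodeficient NSG mice, collected 5 weeks after human MDA-MB-231 breast cancer cells were injected into the mammary fat pad. In the Ctrl group (3 libraries) the tumour cells were MDA-MB-231, and in the DPP3_KO group (3 libraries) they were MDA-MB-231 cells with DPP3, a dipeptidyl peptidase gene, knocked out. Both groups carried tumours and no tumour-free lung was included. The knockout was in the human tumour cells and not in the mice. The labels give neither age nor whether the knockout line was a single clone. The NSG strain has no mature lymphocytes or natural killer cells but still has macrophages and neutrophils. The labels number the replicates without naming separate mice, so p-values here reflect spread among 6 libraries that may be technical only.

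The vacuolar proton pump is a rotary machine in the membranes of endosomes, lysosomes and secretory vesicles. Its outer V1 sector splits ATP, and its membrane V0 sector carries protons inward through a ring of c subunits. Several subunits exist as alternative forms encoded by separate genes, some found in most cells and some in few, such as osteoclasts, macrophages or acid-secreting epithelia. Cathepsins are proteases that mostly work in the acid interior the pump maintains; most are cysteine proteases of the papain family, and a few are aspartic or serine proteases. In the lung both are abundant in alveolar macrophages, which digest surfactant, and in alveolar type 2 cells, which pack it.

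TPM shares a fixed sum, and Scgb1a1, the main club cell secretory gene, took 7.16% to 10.1% of it in Ctrl and 21.7% to 28.8% in DPP3_KO. The deposited values of most other genes were lower in DPP3_KO, with a median log2 change of -0.60 over 15650 genes tested. Changes are therefore given both for the deposited values and after scaling by median of ratios, which divides each library by its typical ratio to the others and brought that median to -0.03. All changes are DPP3_KO minus Ctrl in log2(TPM + 1), where low genes appear to change less than they do, and adjusted p-values are from limma with Benjamini-Hochberg adjustment over all 15650 genes. The deposited TPM keep no sequencing depth. Lung identity was present in every library, with 19588 to 50651 TPM in the summed alveolar type 2 markers.

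A single pump gene, Atp6v0d2, was lower in DPP3_KO lungs both as deposited and after scaling. No other member was called after scaling. As deposited 17 of the 36 members tested were lower at an adjusted p under 0.05, where 34% of all genes were lower, and 0 were higher, where 1.38% of all genes were higher. The 17 were 10 of 22 pump subunit genes, 6 of 13 cathepsin genes and the pseudogene Atp6v0c-ps2. After scaling 1 of 36 was lower by limma, where 0.882% of all genes were, and 0 were higher, where 1.9% were; at an unadjusted p under 0.05 there were 5 lower (13.9%, against 11.6% of all genes) and 2 higher (5.56%, against 11.5%). As deposited 24 were lower at that threshold (66.7%, against 48% of all genes) and 0 higher (against 2.26%). The deposited count changed with the library left out: it was 4 without Ctrl replicate 1, 1 without Ctrl replicate 2 and 13 without Ctrl replicate 3. Without DPP3_KO replicates 1, 2 and 3 in turn it was 11, 18 and 8. In the same order, the count over all genes went from 5321 to 1037, 85, 4457, 3238, 5049 and 1726. Without Ctrl replicate 2 the member left was Atp6v0d2. Every Ctrl library was above every DPP3_KO library in 25 members as deposited, where this held for 51.1% of all genes, and the opposite order held in 0, against 2.73%. After scaling the orders held in 7 and 3 members, against 15.4% and 14.6% of all genes.

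**Figure D1:**
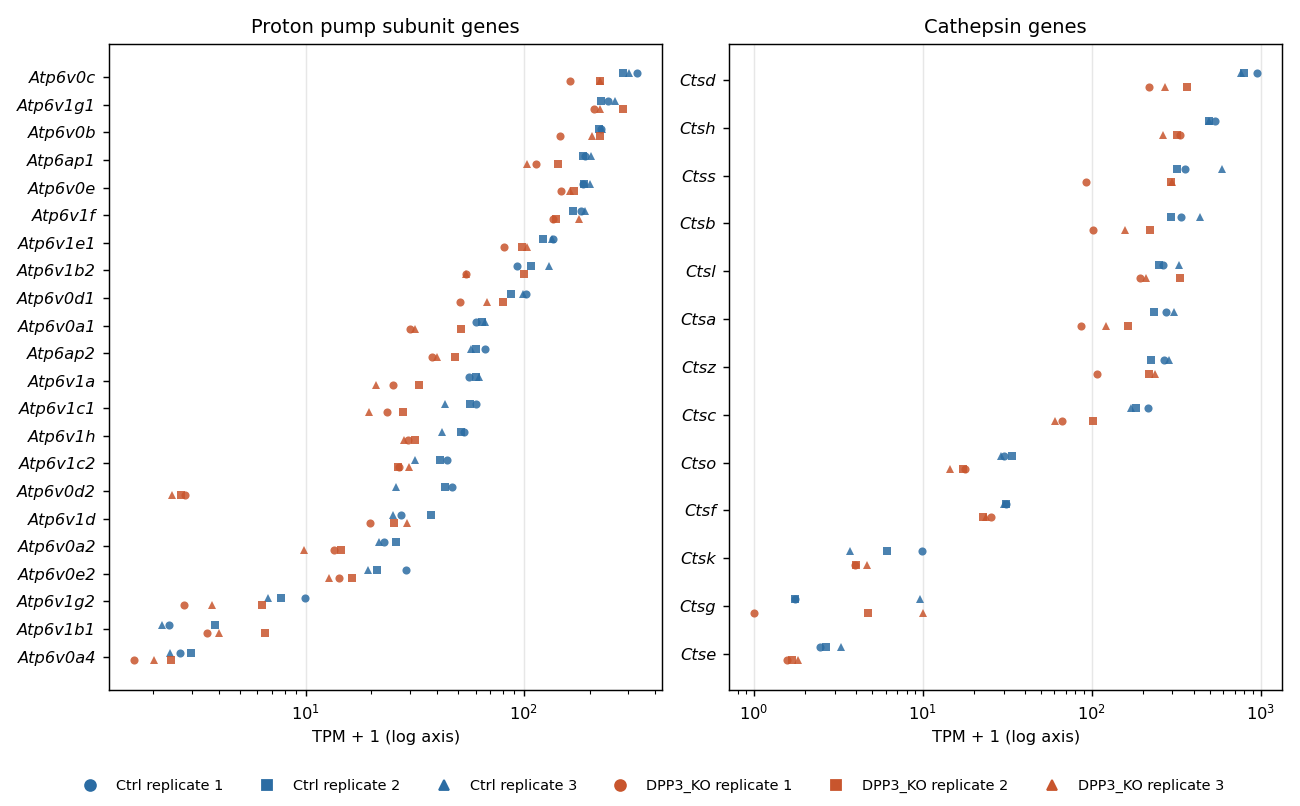
TPM + 1 of the 22 pump subunit genes and 13 cathepsin genes tested, on a log axis, with genes ordered by their Ctrl mean and each point 1 library (blue Ctrl, orange DPP3_KO; circles, squares and triangles are replicates 1, 2 and 3). The 3 DPP3_KO points of Atp6v0d2, at 1.43 to 1.80 TPM, lie far left of its Ctrl points at 24.8 to 45.9 TPM.

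The d subunit joins the rotor of the pump to its c ring, and it has a widespread form, Atp6v0d1, and a form known from osteoclasts and macrophages, Atp6v0d2. Atp6v0d2 (ENSMUSG00000028238) stood at 45.9, 42.3 and 24.8 TPM in Ctrl replicates 1 to 3 and at 1.80, 1.67 and 1.43 TPM in DPP3_KO replicates 1 to 3. The groups did not overlap, and the lowest Ctrl library was far above all DPP3_KO libraries. Atp6v0d2 fell 23.1-fold in mean deposited TPM, a fold that includes the shift shared by most genes. The log2 change was -3.83 ± 0.26 (SE, limma adjusted p = 0.00449) as deposited and -3.30 ± 0.23 (adjusted p = 0.00958) after scaling. Ordered from the most negative change, it was gene 26 of 15650 as deposited and gene 31 after scaling. It stayed called when each library was left out in turn, with adjusted p up to 0.0292 as deposited and 0.0469 after scaling. In bulk tissue, fewer cells of a type and less RNA per cell cannot be told apart. None of the 2664 words of 50 bases in its annotated transcripts occurs in a transcript of another mouse gene in GENCODE M21. Human transcripts were not searched, and how human reads were handled is not given in the sources used here.

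Atp6v0d1 (ENSMUSG00000013160) stood at 101, 86.1 and 98.0 TPM in Ctrl and 50.2, 79.4 and 66.7 TPM in DPP3_KO. Its groups did not overlap either, but the difference was modest: the change was -0.55 ± 0.21 (limma adjusted p = 0.0718) as deposited and 0.10 ± 0.22 (adjusted p = 0.825) after scaling. A share of the summed TPM of a pair does not move with a library's scale. Atp6v0d2 made up 31.2%, 32.9% and 20.2% of the summed TPM of the pair in Ctrl and 3.46%, 2.06% and 2.10% in DPP3_KO. The mean share went from 28.1% ± 6.90 (SD, n = 3) to 2.54% ± 0.799 (SD, n = 3). The log2 ratio, taken from TPM + 1 and so dependent on the scale and pseudocount, differed by -3.28 (-3.84 with a pseudocount of 0.1), with an exact two-sided permutation p = 0.1, the smallest that 3 against 3 libraries allow, and p = 0.16 adjusted over the 8 pairs compared.

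The catalytic head of V1 alternates A and B subunits. Atp6v1a, the only A subunit gene, stood at 55.1, 59.0 and 61.5 TPM in Ctrl and 24.1, 31.9 and 19.9 TPM in DPP3_KO. All Ctrl libraries were above all DPP3_KO libraries, before and after scaling. The change was -1.20 ± 0.21 (limma adjusted p = 0.0155) as deposited and -0.56 ± 0.16 (adjusted p = 0.111) after scaling. Atp6v1b2, the B form of most cells, was at 109 ± 18.7 TPM in Ctrl and 68.6 ± 26.7 (SD, n = 3) in DPP3_KO and passed in neither fit (-0.72 and -0.07).

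Atp6v1b1, the B form of kidney intercalated cells and other acid-secreting epithelia, was the only tested pump subunit gene with a higher mean in DPP3_KO as deposited; after scaling 11 of the 22 had a change above 0. It stood at 1.36, 2.83 and 1.18 TPM in Ctrl and 2.51, 5.47 and 3.01 TPM in DPP3_KO, and Ctrl replicate 2 lay inside the DPP3_KO range as deposited. After scaling the groups no longer overlapped, as for 14.6% of all genes in that direction, and the change was 1.19 ± 0.29 (limma adjusted p = 0.0793), against 0.74 ± 0.34 (adjusted p = 0.122) as deposited. Its share of the B pair was 1.65% ± 0.856 (SD, n = 3) in Ctrl and 5.03% ± 0.469 in DPP3_KO, without overlap (exact two-sided permutation p = 0.1 for the log2 ratio). The ionocyte transcription factor gene Foxi1 was listed at 0 in every library. Of the 10 ionocyte markers listed, 4 were tested, and their summed TPM was 19.0 to 28 in Ctrl and 15.8 to 26.4 in DPP3_KO. Of the 4, 1 was higher as deposited and after scaling, 1 was lower as deposited, and 2 were not called. Among all genes 1.38% were higher as deposited and 1.9% after scaling, and 34% were lower as deposited. The summed markers of club and ciliated cells were higher in every DPP3_KO library than in any Ctrl library, at 238021 to 310836 against 82345 to 116760 TPM and at 1131 to 1196 against 659 to 924 TPM. Their part in the Atp6v1b1 values was not tested.

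The outer stalks of V1, its stator, hold the head in place while the central stalk turns with the rotor. Atp6v1c1, the widespread form of the C subunit through which V1 attaches, stood at 59.4, 55.6 and 42.7 TPM in Ctrl and 22.4, 27.0 and 18.5 TPM in DPP3_KO. The groups did not overlap before or after scaling, and the change was -1.18 ± 0.21 (limma adjusted p = 0.0159) as deposited and -0.54 ± 0.16 (adjusted p = 0.119) after scaling. Atp6v1c2, the epithelial form that is high in lung, went from 38.0 ± 6.54 to 26.7 ± 1.84 TPM (SD, n = 3) and did not pass (-0.48 and 0.16). Its share of the C pair was therefore higher in DPP3_KO: it was 42.1%, 41.9% and 41.8% in Ctrl and 53.5%, 48.6% and 60.9% in DPP3_KO. The Ctrl libraries were nearly identical to each other in this share (exact two-sided permutation p = 0.1 for a log2 ratio difference of 0.70).

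Atp6v1h, a regulatory subunit of V1, was at 52.2, 50.5 and 41.3 TPM in Ctrl and 28.3, 30.8 and 27.3 TPM in DPP3_KO. The groups were apart as deposited and overlapped after scaling, and it fell as deposited (log2 change -0.71, limma adjusted p = 0.0229) and stood at -0.07 after scaling. Atp6v1g1, the common G stalk subunit, was level as deposited (-0.04, adjusted p = 0.868). After scaling all its DPP3_KO libraries lay above all Ctrl libraries (0.62, limma adjusted p = 0.125). The neuronal G form Atp6v1g2 was low, at 5.72 to 8.90 TPM in Ctrl and 1.75 to 5.28 in DPP3_KO, and its share of the G pair was 2.85% ± 0.701 and 1.29% ± 0.509 (SD, n = 3). The stalk genes Atp6v1d, Atp6v1e1 and Atp6v1f did not pass, with scaled changes of 0.37, 0.17 and 0.39. Atp6v1e2, the testis form of E, was listed at 0 in every library, and the kidney form of G, Atp6v1g3, was at most 0.430 TPM; neither was tested.

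The a subunits of V0 form the proton path beside the c ring and steer the pump to its membrane. Atp6v0a1 was at 59.2, 63.2 and 65.3 TPM in Ctrl and 29.2, 50.4 and 30.8 TPM in DPP3_KO. Atp6v0a2 was at 21.9, 24.9 and 20.7 TPM in Ctrl and 12.5, 13.5 and 8.77 TPM in DPP3_KO. Both fell as deposited, with groups apart, and after scaling the groups of Atp6v0a2 stayed apart and those of Atp6v0a1 overlapped. Their log2 changes were -0.79 (limma adjusted p = 0.0381) and -0.92 (adjusted p = 0.0212), and -0.15 and -0.30 after scaling. Tcirg1, which encodes the a3 form of lysosomes and osteoclasts and lies outside the symbol rule, was at 99.6, 94.7 and 105 TPM in Ctrl and 38.9, 75.8 and 73.4 TPM in DPP3_KO. It passed in neither fit (-0.72, limma adjusted p = 0.0726, and -0.07). The ratio of Tcirg1 to Atp6v0a1 differed by 0.07 on the log2 scale (exact two-sided permutation p = 0.9). Atp6v0a4, the form of acid-secreting epithelia, was at 0.630 to 1.98 TPM over all libraries and passed in neither fit (-0.42 and -0.05). Its share beside Atp6v0a1 was 2.61% ± 0.495 (SD, n = 3) in Ctrl and 2.68% ± 0.536 in DPP3_KO, with overlap. The log2 ratio of TPM + 1 differed by 0.38 (exact two-sided permutation p = 0.1, 0.16 adjusted over the 8 pairs). With a pseudocount of 0.1 this difference was 0.097.

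Atp6v0c, the main c ring gene, had the highest mean TPM of the pump subunits over all libraries, though in DPP3_KO Atp6v1g1 was higher. It was at 329.5, 284 and 301 TPM in Ctrl and 162, 222 and 223 TPM in DPP3_KO. The groups did not overlap as deposited and did after scaling. It fell as deposited (log2 change -0.60, limma adjusted p = 0.0449) and stood at 0.06 after scaling. The value is uncertain because its processed copy Atp6v0c-ps2, listed at 154, 131 and 131 TPM in Ctrl and 57.9, 94.6 and 68.6 TPM in DPP3_KO (-0.93, limma adjusted p = 0.0220; -0.28 after scaling), shares 88% of its own 50-base words with Atp6v0c. How reads were divided between these entries is not given in the sources used here. Atp6v0b, which encodes the c'' ring subunit, was at 225, 221 and 228 TPM in Ctrl and 145, 222 and 205 TPM in DPP3_KO and passed in neither fit (-0.26 and 0.40). Atp6v1g1, second over all libraries, stood at 243, 225 and 262 TPM in Ctrl and 209, 282 and 223 TPM in DPP3_KO, with groups that overlapped.

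The small e subunit Atp6v0e was at 185, 187 and 199.8 TPM in Ctrl and 147, 168 and 162 TPM in DPP3_KO. Its order turned with the scale: every Ctrl library was higher as deposited, and every DPP3_KO library was higher after scaling (-0.26 and 0.39, passing in neither fit). Atp6v0e2, its brain-enriched form, was at 27.8, 20.1 and 18.3 TPM in Ctrl and 13.2, 15.3 and 11.8 TPM in DPP3_KO. Its groups were apart as deposited and overlapped after scaling, and it fell as deposited (log2 change -0.66, limma adjusted p = 0.0485) and stood at -0.04 after scaling. Its share of the e pair was 10.4% ± 2.42 (SD, n = 3) in Ctrl and 7.82% ± 0.872 in DPP3_KO. The shares narrowly did not overlap, at 8.41% or more and 8.36% or less, while the log2 ratios of TPM + 1 did. The exact two-sided permutation p = 0.3 (0.4 adjusted over the 8 pairs) belongs to those log2 ratios.

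The accessory genes Atp6ap1 and Atp6ap2 encode proteins that help assemble the pump, and the product of Atp6ap2 also binds prorenin. Atp6ap1 was at 189, 186 and 201 TPM in Ctrl and 113, 143 and 102 TPM in DPP3_KO. Atp6ap2 was at 65.5, 59.5 and 55.9 TPM in Ctrl and 36.7, 47.1 and 39.0 TPM in DPP3_KO. Every Ctrl library was above every DPP3_KO library for both as deposited, and the groups overlapped after scaling. Both fell as deposited, by 0.70 and by 0.55 on the log2 scale (limma adjusted p = 0.0271 and 0.0439). After scaling they stood at -0.04 and 0.09.

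**Figure D2:**
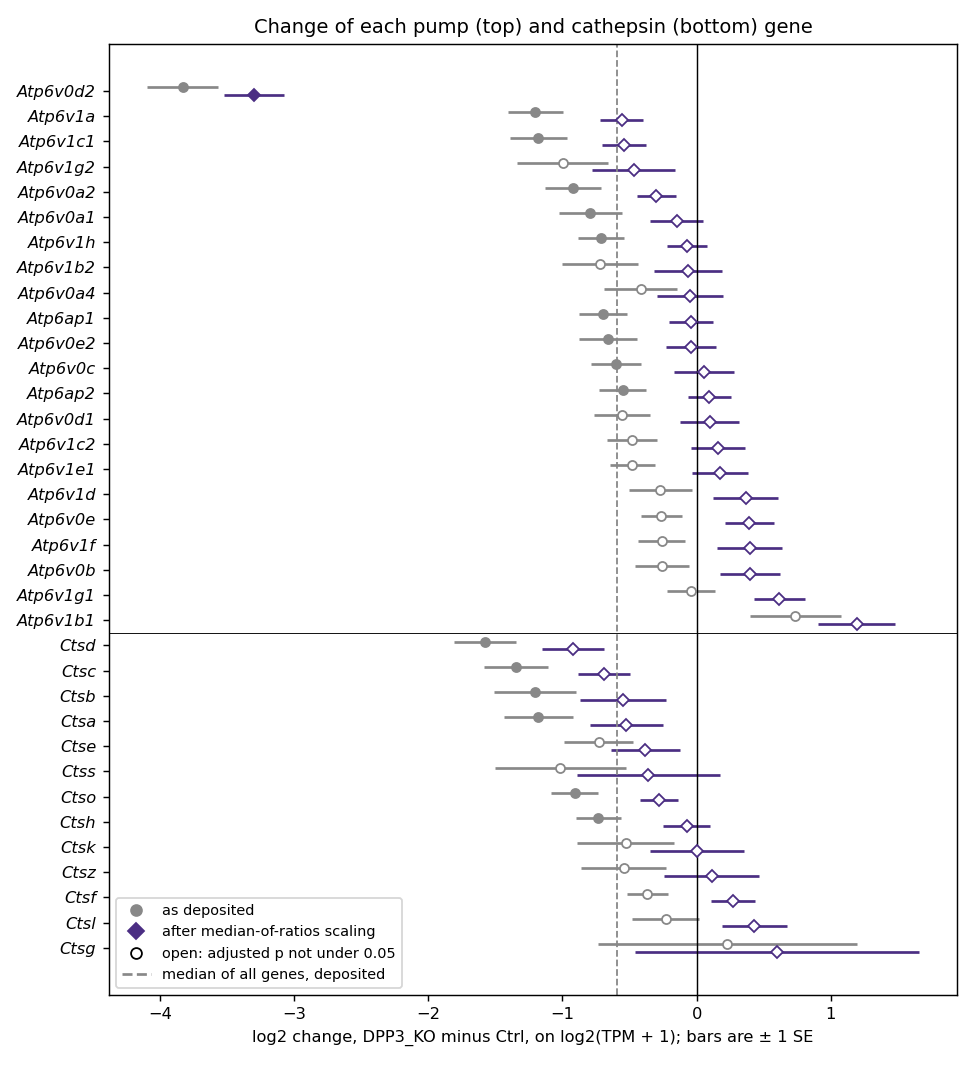
Log2 change of each tested pump subunit gene (above the line) and cathepsin gene (below it), DPP3_KO minus Ctrl with bars of 1 SE; grey circles are as deposited, purple diamonds after median-of-ratios scaling, filled where the adjusted p is under 0.05, and the dashed line is the deposited median of all genes, -0.60. Atp6v0d2 is the only filled diamond, and the other diamonds lie between -0.92 and 1.19.

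Over the 22 pump subunit genes tested the median log2 change was -0.58 as deposited and 0.01 after scaling, beside -0.60 and -0.03 for all genes. After scaling 11 lay below 0 and 11 above, from -3.30 for Atp6v0d2 to 1.19 for Atp6v1b1. The summed TPM of the pump subunit genes was 2046 to 2150.1 in Ctrl and 1312 to 1731 in DPP3_KO. The order among the subunits did not follow the sector: the V1 genes had a scaled median of 0.16 over 11 genes and the V0 genes -0.04 over 9.

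**Figure D3:**
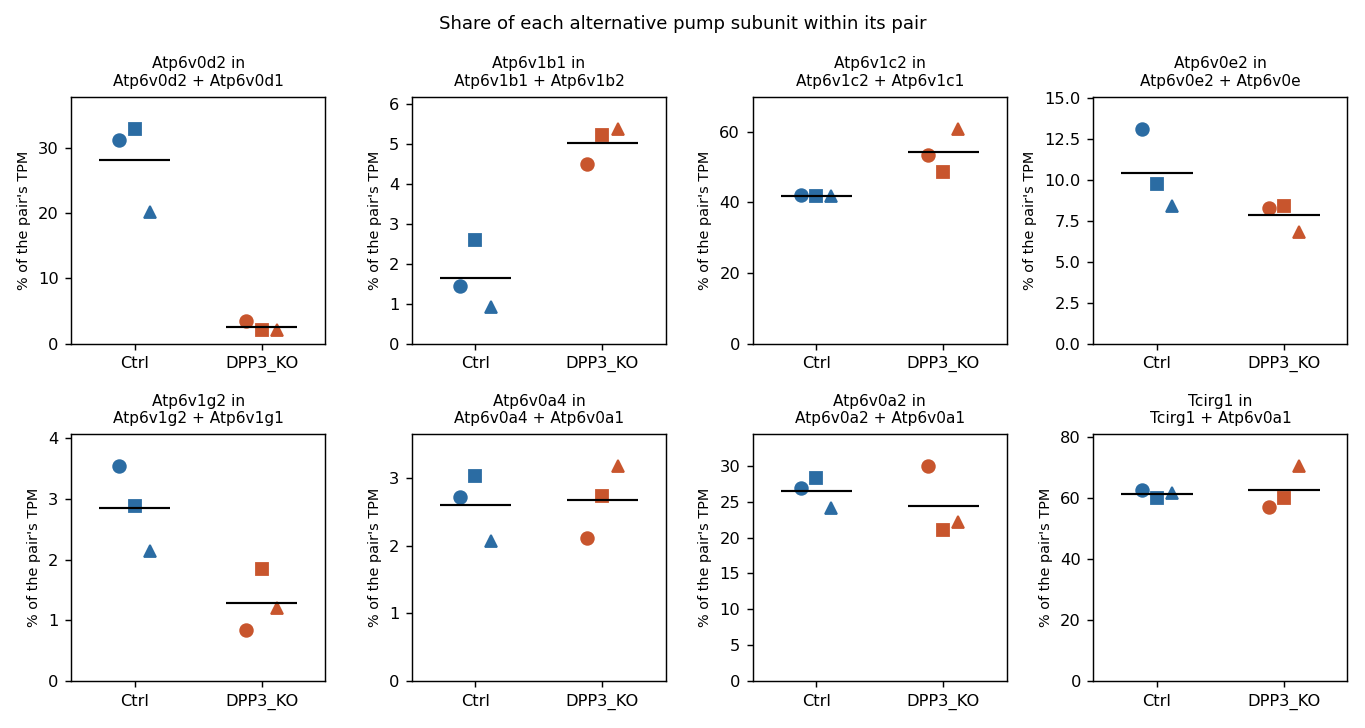
Share of the first named gene in the summed TPM of each of the 8 pairs of alternative subunits, in percent, per library (blue Ctrl, orange DPP3_KO; circles, squares and triangles are replicates 1, 2 and 3; lines are group means; each axis starts at 0). The Atp6v0d2 panel shows 20.2% to 32.9% in Ctrl and 2.06% to 3.46% in DPP3_KO, and the groups also stand apart in the Atp6v1b1, Atp6v1c2 and Atp6v1g2 panels; in the Atp6v0e2 panel they nearly meet, at 8.41% and 8.36%.

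Cathepsin D, encoded by Ctsd, is the main aspartic protease of lysosomes. Its transcript had the highest mean of the cathepsins over all libraries, though in DPP3_KO Ctsh was higher. Ctsd (ENSMUSG00000007891) stood at 954, 795 and 760.2 TPM in Ctrl and 217, 366 and 271 TPM in DPP3_KO. The lowest Ctrl library was above the highest DPP3_KO library, before and after scaling. The mean deposited TPM fell 2.94-fold, a fold that includes the shift shared by most genes. The log2 change was -1.58 ± 0.23 (limma adjusted p = 0.0145) as deposited and -0.92 ± 0.23 (adjusted p = 0.0864) after scaling. After quantile normalization it was called at -1.29 (limma adjusted p = 0.0362), and without Ctrl replicate 2 the deposited call was lost (-1.61, adjusted p = 0.0662). Ctse, the other aspartic cathepsin, was at 1.45 to 2.29 TPM in Ctrl and 0.560 to 0.810 in DPP3_KO. It passed in neither fit (-0.73, limma adjusted p = 0.0606, and -0.38).

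Ctsc, which encodes the dipeptidyl peptidase that activates granule serine proteases, stood at 214, 181 and 169 TPM in Ctrl and 65.2, 100.4 and 59.2 TPM in DPP3_KO. Its groups were apart before and after scaling, and it fell by 1.35 on the log2 scale as deposited (limma adjusted p = 0.0156), with -0.69 ± 0.19 (adjusted p = 0.106) after scaling. Ctso, a little-studied papain family gene, was at 29.2, 32.7 and 27.8 TPM in Ctrl and 16.8, 16.2 and 13.5 TPM in DPP3_KO. It fell as deposited (-0.91, limma adjusted p = 0.0169) and stood at -0.28 after scaling, also without overlap. Ctsb, a broadly expressed lysosomal cathepsin, was at 336, 295 and 437 TPM in Ctrl and 101, 221 and 156 TPM in DPP3_KO. It fell as deposited (-1.21, limma adjusted p = 0.0262) and stood at -0.55 after scaling, where Ctrl replicate 2 lay below 2 DPP3_KO libraries.

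Ctsa encodes the serine carboxypeptidase that protects lysosomal sialidase and galactosidase. It was at 273, 233 and 307 TPM in Ctrl and 84.9, 162 and 121 TPM in DPP3_KO, without overlap as deposited. The change was -1.18 (limma adjusted p = 0.0199) as deposited and -0.52 after scaling (adjusted p = 0.297). Ctsh, an aminopeptidase that processes surfactant protein in alveolar type 2 cells, was second among cathepsins over all libraries, at 532, 492 and 493 TPM in Ctrl and 331, 320.1 and 264 TPM in DPP3_KO. It fell as deposited (-0.73, limma adjusted p = 0.0214) and stood at -0.07 after scaling, level with the typical gene. The summed alveolar type 2 markers were 27749 to 50651 TPM in Ctrl and 19588 to 30642 TPM in DPP3_KO; their part in the Ctsh values was not tested.

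Ctss encodes the cathepsin of antigen-presenting cells that trims the invariant chain, and came next after Ctsh over all libraries, below Ctsl in DPP3_KO. It was at 354, 317 and 592 TPM in Ctrl and 90.8, 295 and 297 TPM in DPP3_KO, and it passed in neither fit (-1.02, limma adjusted p = 0.132, and -0.36). DPP3_KO replicate 1 stood low for Ctss and also for Ctsz, a carboxypeptidase of myeloid cells, at 107 TPM against 217 and 236 in the other DPP3_KO libraries and 224 to 285 in Ctrl. Ctsl, a cathepsin of most tissues, was at 250.3 to 327 TPM in Ctrl and 191 to 333 in DPP3_KO (-0.23 and 0.43, passing in neither fit). Ctsf did not pass (-0.37 and 0.27), nor did Ctsk, the collagen-degrading cathepsin of osteoclasts, at 2.68 to 8.91 TPM in Ctrl and 2.95 to 3.66 in DPP3_KO.

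Ctsg, a serine protease of neutrophil granules, was at 0.750, 0.750 and 8.55 TPM in Ctrl and 0, 3.71 and 9.0 TPM in DPP3_KO. Both groups spanned low and high libraries. The change of 0.23 ± 0.97 as deposited did not pass (limma adjusted p = 0.860), nor did 0.60 ± 1.06 after scaling (adjusted p = 0.771). The summed level of 12 neutrophil markers was 4061, 7175 and 52557 TPM in Ctrl and 1673, 34616 and 15494 TPM in DPP3_KO, led by S100a9 at 2621 to 29212 and 1065 to 19760.1 TPM and S100a8 at 965 to 17949 and 394 to 10614 TPM. Ctrl replicate 3 and DPP3_KO replicates 2 and 3 were the high libraries there too. The lowest neutrophil sum was in DPP3_KO replicate 1, the library with the lowest Ctss and Ctsz. The summed alveolar macrophage markers were also lowest in that library, at 397 TPM against 667 to 4256 TPM in the others. The part of neutrophils and macrophages in the Ctss, Ctsz and Ctsg values was not tested. Ctsw, the cathepsin of natural killer and cytotoxic T cells, was at 0 to 0.690 TPM over all libraries and was not tested, and Ctsj, Ctsm, Ctsq and Ctsr, known from the placenta, were listed at 0 in every library.

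Over the 13 cathepsin genes tested the median log2 change was -0.73 as deposited and -0.28 after scaling, beside -0.60 and -0.03 for all genes. After scaling 8 lay below 0 and 5 above, and limma called 0 in either direction, with 2 lower (15.4%, against 11.6% of all genes) and 0 higher (against 11.5%) at an unadjusted p under 0.05. In 3 of the 13 every Ctrl library was above every DPP3_KO library after scaling, where 15.4% of all genes were. With each library left out in turn, the deposited call held in 6 of 6 fits for Atp6v0d2, in 5 for Ctsd, Ctsc and Atp6v1a, and in 4 for Atp6v1c1, Atp6v0a2, Ctso and Ctsh. It held in 3 for Ctsa and Atp6v0c-ps2, in 2 for Ctsb and Atp6v1h, in 1 for Atp6v0a1, Atp6v0e2, Atp6ap1 and Atp6ap2, and in 0 for Atp6v0c. Summed cathepsin TPM was 3263, 2858 and 3441 in Ctrl and 1233, 2060.1 and 1663 in DPP3_KO.

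Lysosomal genes are known to share a promoter element bound by the TFEB family, a longer form of the E-box with the core TCACGTG. RefSeq promoters (GRCm38.p6, 250 bases before the gene start and 50 after it) were found by symbol for 33 of the 45 members, and Atp6v0d2 was not among them. The letters TCACGTG, searched on both strands, occurred in 6 of the 37 promoters of these genes (16.2%), against 3.77% of all 32851 promoters. Counted by gene this was 6 of 33 (18.2%), against 4.29% of all 27025 genes in the table. Every match also holds the shorter CACGTG, found in 8 of the 37 promoters (21.6%) and in 7.15% of all. The 250 bases before the start are shown for the 4 members with a whole match there, because they show where the letters lie in members of both families. Capitals mark the matches, and each sequence runs toward the gene.
Ctsd, chr7:142387828-142388077, minus strand: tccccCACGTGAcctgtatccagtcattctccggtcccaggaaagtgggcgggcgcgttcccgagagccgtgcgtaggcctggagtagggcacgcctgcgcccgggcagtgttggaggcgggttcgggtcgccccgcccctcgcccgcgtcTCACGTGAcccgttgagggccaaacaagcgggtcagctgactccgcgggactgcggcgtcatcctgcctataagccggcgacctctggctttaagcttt
Ctsa, chr2:164833523-164833772, plus strand: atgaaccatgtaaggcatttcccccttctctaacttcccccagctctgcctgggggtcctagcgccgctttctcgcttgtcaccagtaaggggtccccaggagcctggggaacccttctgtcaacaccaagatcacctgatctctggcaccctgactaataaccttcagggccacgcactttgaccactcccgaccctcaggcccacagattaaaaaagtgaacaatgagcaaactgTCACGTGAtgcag
Atp6v1a, chr16:44139260-44139509, minus strand: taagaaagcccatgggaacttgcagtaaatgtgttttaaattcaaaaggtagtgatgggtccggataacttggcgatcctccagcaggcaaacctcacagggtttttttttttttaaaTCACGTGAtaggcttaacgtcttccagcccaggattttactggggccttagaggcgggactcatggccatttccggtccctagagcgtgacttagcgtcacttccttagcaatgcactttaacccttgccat
Atp6v0b, chr4:117887330-117887579, minus strand: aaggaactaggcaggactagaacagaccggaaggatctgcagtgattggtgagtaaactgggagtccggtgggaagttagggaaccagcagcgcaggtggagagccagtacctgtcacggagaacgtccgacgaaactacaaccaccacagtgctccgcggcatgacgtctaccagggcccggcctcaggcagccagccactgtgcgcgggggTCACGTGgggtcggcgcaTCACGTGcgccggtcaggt
Ctsd and Atp6v0b each hold 2 matches, with the nearer one starting 99 and 19 bases before the start. The match of Atp6v1a starts 132 bases before it and the upstream match of Ctsa 13 bases before it. Ctsa has another match across or after the start, as have Atp6v0d1 and Atp6v0e, which have none wholly upstream. Scaled changes of these 6 genes were -0.92 for Ctsd, -0.56 for Atp6v1a, -0.52 for Ctsa, 0.10 for Atp6v0d1, 0.39 for Atp6v0e and 0.40 for Atp6v0b, so the genes with the letters lay on both sides of 0, and of these only Ctsd, Ctsa and Atp6v1a were called as deposited. A match describes the letters and is not a binding site.

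Of the transcription factors of this family, Mitf and Tfec fell as deposited and none was called after scaling. Tfeb was at 18.8 ± 2.31 TPM in Ctrl and 16.6 ± 4.30 (SD, n = 3) in DPP3_KO, and Tfe3 at 25.7 ± 3.76 and 23.6 ± 3.73 TPM; neither passed (log2 changes of -0.19 and -0.12, and 0.44 and 0.52 after scaling). Mitf fell from 6.45 ± 0.733 to 3.28 ± 0.630 TPM as deposited (-0.81, limma adjusted p = 0.0283) and stood at -0.27 after scaling. Tfec, the family member of macrophages, was at 7.80, 8.97 and 8.39 TPM in Ctrl and 1.18, 2.48 and 2.63 TPM in DPP3_KO. Its groups were far apart, with a change of -1.63 (limma adjusted p = 0.0145) as deposited and -1.11 (adjusted p = 0.0757) after scaling. Of 16 genes of the TFEB family and of the mTORC1 machinery on lysosomes, 9 fell as deposited, where 34% of all genes did. After scaling limma called 0 of them, with 2 lower and 1 higher at an unadjusted p under 0.05. At that threshold 11.6% of all genes were lower and 11.5% higher. Mtor stood at -1.18 and -0.59.

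Other lysosomal genes lay near the cathepsins. Over all genes 34% fell as deposited and 0.882% after scaling by limma. At an unadjusted p under 0.05 after scaling, 11.6% of all genes were lower and 11.5% higher. At that threshold 9 of 36 lysosomal hydrolase genes other than cathepsins were lower and 0 higher. Of the 36, 20 fell as deposited and 1 after scaling by limma, with medians of -0.86 and -0.26. Lipa, the acid lipase that frees cholesterol from esters, was the 1, at 61.4, 57.4 and 46.9 TPM in Ctrl and 16.9, 16.2 and 13.3 TPM in DPP3_KO. Its groups did not overlap, and the change was -1.77 as deposited and -1.14 after scaling (limma adjusted p = 0.0144 and 0.0222). Plbd2, a phospholipase B-like gene, fell as deposited (-1.54, adjusted p = 0.0145) and stood at -0.92 after scaling. Of 18 lysosomal membrane protein genes 3 were lower and 1 higher after scaling at the same unadjusted threshold. By limma 13 of the 18 fell as deposited and 1 fell after scaling, with medians of -0.81 and -0.21. The 1 was Mcoln1, a calcium channel of the lysosome, at 79.9, 69.0 and 62.6 TPM in Ctrl and 17.3, 23.3 and 17.3 TPM in DPP3_KO (-1.82 and -1.18, limma adjusted p = 0.0144 and 0.0223). Lamp1, the abundant lysosomal membrane glycoprotein, went from 589 ± 61.1 to 282 ± 23.1 TPM (-1.06, limma adjusted p = 0.0148; -0.40 after scaling). The scaled calls were fragile: Mcoln1 stayed called in 1 of 6 fits that left out a library, the one without DPP3_KO replicate 1, and Lipa in 2 of 6, those without Ctrl replicate 3 or DPP3_KO replicate 1.

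Genes that assemble or regulate the pump showed a single rise. Of 13 tested, 5 fell and 1 rose as deposited, where 1.38% of all genes rose. After scaling 0 fell and 1 rose, where 1.9% of all genes rose. The 1 was Rnasek, named here after its value was seen, whose product associates with the pump; it was at 161, 142 and 125 TPM in Ctrl and 196, 196 and 248 TPM in DPP3_KO (0.58 and 1.23, limma adjusted p = 0.0469 and 0.0478). That call was lost in each of the 6 fits that left out a library, with adjusted p up to 0.148 as deposited. Oxr1 and Wdr7, with the smallest p of this list, fell as deposited (-1.26 and -0.99) and stood at -0.63 and -0.48 after scaling. Of 12 genes that carry hydrolases to lysosomes by the mannose 6-phosphate route or sort them, 10 fell as deposited and 0 were called after scaling by limma. After scaling 5 were lower and 0 higher at an unadjusted p under 0.05. Over all genes 34% fell as deposited, and 11.6% were lower and 11.5% higher after scaling at that unadjusted threshold. Sort1, a sorting receptor, stood at -1.66 and -1.01, and Vps35, of the retromer, at -1.10 and -0.46.

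Of 12 cathepsin inhibitor genes tested, 3 fell as deposited, where 34% of all genes did. After scaling limma called 0, and 0 were lower and 1 was higher at an unadjusted p under 0.05. At that threshold 11.6% of all genes were lower and 11.5% higher. Cst3, the abundant secreted cystatin C gene, fell from 2257 ± 155 to 1384 ± 322 TPM (SD, n = 3) as deposited (-0.73, limma adjusted p = 0.0387) and stood at -0.07 after scaling. Serpinb6a and Serpinb1a, which encode intracellular serpins, fell as deposited (-0.63 and -1.32) and stood at 0.02 and -0.70 after scaling. With each library left out in turn the deposited calls held in 1 of 6 fits for Cst3 and Mitf, in 2 for Serpinb6a and in 0 for Serpinb1a. The list's scaled median was 0.70, and it holds stefin genes of neutrophils, whose reads can be shared between near-identical copies.

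**Figure D4:**
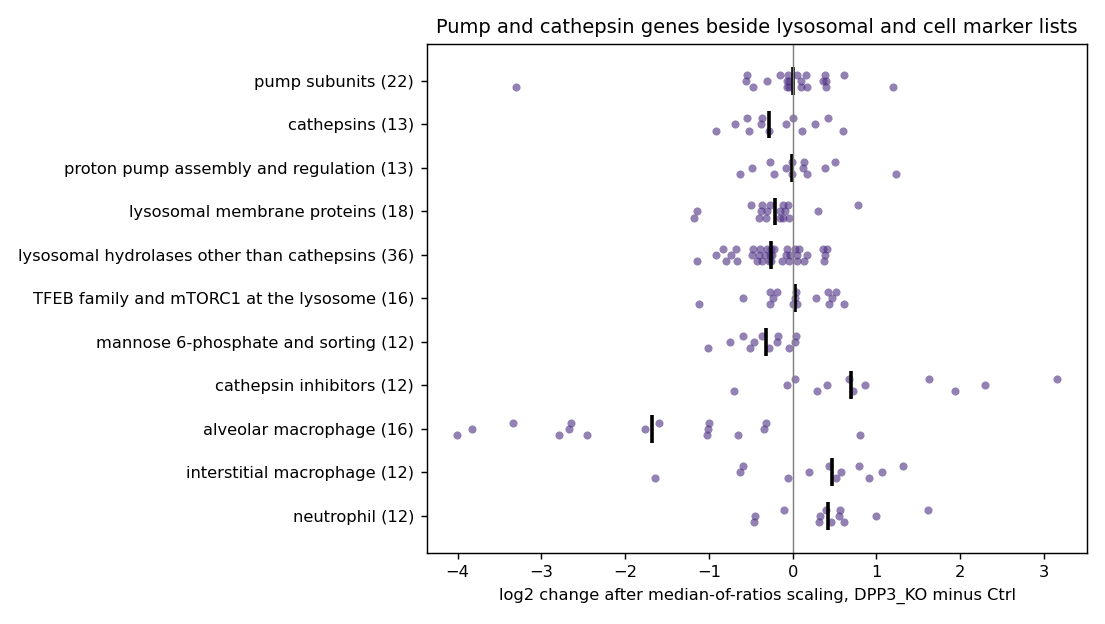
Log2 change after median-of-ratios scaling, DPP3_KO minus Ctrl, for each tested gene (points) of the pump, the cathepsins, 6 lists of related genes and 3 lists of cell markers, with bars at the medians and the number of genes in brackets. Atp6v0d2 is the leftmost pump point at -3.30, away from the other pump genes. The alveolar macrophage markers run from -4.01 to 0.81, a range that also holds nearly all other pump points.

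Markers of the cell types known for Atp6v0d2 were measured in the same libraries. Over all genes 34% fell as deposited and 0.882% after scaling by limma. Of 16 alveolar macrophage markers 11 fell as deposited and 7 after scaling, with medians of -2.20 and -1.68 and scaled changes from -4.01 to 0.81. At an unadjusted p under 0.05 after scaling 11 of these markers were lower and 1 was higher. Their summed TPM was 3155, 2599 and 4256 in Ctrl and 397, 2084 and 667 in DPP3_KO. The most abundant were Chil3, at 956, 755 and 2347 TPM in Ctrl and 135, 1404 and 282 TPM in DPP3_KO, and Ear2, at 1401, 1134 and 1169.7 TPM and 55.4, 259 and 97.3 TPM. Chil3 was called in neither fit (limma adjusted p = 0.149 as deposited and 0.510 after scaling), and Ear2 was called in both. In DPP3_KO replicates 1, 2 and 3, 13, 13 and 14 of the 16 markers were below every Ctrl library as deposited, and 12, 13 and 14 after scaling. The share of all genes was not counted library by library. All 3 DPP3_KO libraries were below every Ctrl library in 11 of the 16 as deposited and 10 after scaling, against 51.1% and 15.4% of all genes. Most of the sum in DPP3_KO replicate 2 was Chil3. Chil3 was highest in Ctrl replicate 3 and DPP3_KO replicate 2, which also had the highest summed neutrophil markers, at 52557 and 34616 TPM. The part of neutrophils in this sum was not tested. Atp6v0d2 was below every Ctrl library in all 3 as well. Ear2 belongs to a family of near-identical ribonuclease genes, so its value is uncertain. Car4, on this list, is also a capillary marker.

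Of 12 interstitial macrophage markers 1 fell as deposited and 0 after scaling by limma, with medians of -0.13 and 0.47 and, after scaling, 1 lower and 1 higher at an unadjusted p under 0.05. The osteoclast-type markers were led by Acp5 and Mmp9, at 40.9 to 236 and 34.6 to 182 TPM in Ctrl and at 11.0 to 205 and 9.25 to 144 TPM in DPP3_KO, with overlapping groups. Of 5 osteoclast markers tested 3 fell as deposited and 0 after scaling by limma, with 1 lower and 0 higher at an unadjusted p under 0.05. Markers of other cell types moved too. Of 12 alveolar type 1 markers 11 fell as deposited and 2 after scaling, and of 14 capillary endothelium markers 12 and 3. Their scaled medians were -1.30 and -1.11. Of 12 heart muscle markers 0 fell and 6 rose in each fit, with a scaled median of 1.98. Among all genes 34% fell and 1.38% rose as deposited, and 0.882% fell and 1.9% rose after scaling. At an unadjusted p under 0.05 after scaling, 11.6% of all genes were lower and 11.5% higher. Club and ciliated cell markers had scaled medians of 1.41 and 1.53. The part of any of these cells in the changes of Atp6v0d2, Ctsd or Tfec was not tested.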

How the data were processed

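Per the labels' protocols, lung RNA was sequenced from TruSeq libraries. The authors deposited 1 matrix of TPM values, which give no depth; all 6 value columns matched a sample, the third Ctrl title reading 232 where the others read 231, taken as a slip. The submitters' processing notes name HISAT2, StringTie, RSEM and GRCm39 and assign no roles. The gene annotation, the strand setting and how human reads were handled: not given in the sources used here. Values became log2(TPM + 1). Genes with a mean of at least 1 deposited TPM were fitted with limma 3.58.1 in R 4.3.3 (eBayes with trend, two-sided, Benjamini-Hochberg threshold 0.05), which was also tested on simulated data. Median-of-ratios factors used genes above 0 in every library. Pair ratios used exact permutation of libraries. The members and lists were chosen with earlier results of these data known. Every tested member is described; library values are given for members called with groups apart, and for the 3 of each family with the highest mean. Of the genes outside the rule, a fixed set and the 2 smallest p of each pathway list are named. Shared words came from GENCODE M21 transcripts and promoters from RefSeq, both on an earlier build than the matrix.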

Additional observations from a re-analysis of the deposited data

How the results depend on the processing

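The counts of calls depended on the scale and on single libraries, while the fall of Atp6v0d2 stayed called under all alternatives run for it. Genes lower as deposited numbered 3093 without a filter on low values, 138 after median-of-ratios scaling, 140 after quantile normalization, 423 with TPM rescaled without Scgb1a1 and 91 with a length trend removed after median-of-ratios scaling (lowess span 0.3), and 85 to 5049 with 1 library left out. Genes higher numbered 327 after quantile normalization and 6 to 161 with 1 library left out. Members lower were 1, 2, 3 and 1 after median-of-ratios scaling, quantile normalization, rescaling without Scgb1a1 and removal of the length trend, and 1 to 18 with 1 library left out. From the scaled values, 138 genes were lower and 297 higher; removing the length trend left 91 and 186, and leaving out 1 library left 6 to 175 and 18 to 179. Scaled members lower were 2 after quantile normalization, Atp6v0d2 and Ctsd. Same-numbered libraries of the groups had deviations correlated at 0.271, -0.206 and 0.147, and not every library correlated best with its own number, so the numbers were not taken to pair them; with a replicate block 13 members and 4734 genes were lower and 212 higher as deposited, and 1 member, 12 genes and 39 genes after scaling.

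Changes below 0 as deposited turned above 0 in several genes. After median-of-ratios scaling these were Atp6v1f 0.39, Atp6v0d1 0.097, Atp6v0e 0.39, Ctsz 0.11, Atp6v1e1 0.17, Atp6v1c2 0.16, Atp6v1d 0.37, Ctsl 0.43, Atp6v0c 0.056, Ctsk 0.0023, Atp6ap2 0.095, Atp6v0b 0.40, Atp6v1g1 0.62, Ctsf 0.27, Tfe3 0.52, Tfeb 0.44 and Serpinb6a 0.025. After quantile normalization they were Atp6v1f 0.20, Atp6v0d1 0.0072, Atp6v0e 0.16, Atp6v1e1 0.026, Atp6v1c2 0.15, Atp6v1d 0.38, Ctsl 0.19, Ctsk 0.024, Atp6ap2 0.057, Atp6v0b 0.14, Atp6v0a4 0.025, Atp6v1g1 0.35, Atp6v0e2 0.011, Ctsf 0.29, Tfe3 0.55 and Tfeb 0.47. With the length trend removed they were Atp6v1f 0.055, Atp6v0e 0.14, Atp6v1d 0.49, Ctsl 0.69, Atp6ap2 0.050, Atp6v0b 0.089, Atp6v0a4 0.033, Atp6v1g1 0.33, Ctsf 0.17, Tfe3 0.60 and Tfeb 0.39. Rescaled without Scgb1a1 they were Atp6v1f 0.049, Atp6v0e 0.047, Atp6v1d 0.030, Ctsl 0.082, Atp6v0b 0.052, Atp6v1g1 0.27, Tfe3 0.19 and Tfeb 0.11. Ctsg stood at -0.28 with a pseudocount of 0.1. With 1 library left out, Ctsg ranged from -0.51 to 1.16, Atp6v1g1 from -0.17 to 0.048 and Tfeb from -0.33 to 0.026. The ratio of Atp6v0a2 to Atp6v0a1 ranged from -0.33 to 0.0064 and that of Tcirg1 to Atp6v0a1 from -0.17 to 0.24. The settings for genes outside the rule were added after seeing the data. The cause of these turns was not tested beyond the scaling itself.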

Other observations

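An entry outside the rule, Gm49369, was looked at after its overlap with Ctsd was seen: 32.4% of the 50-base words of the Ctsd transcripts also occur in transcripts of Gm49369. Gm49369 (ENSMUSG00000110040) was at 11.5, 20.1 and 10.8 TPM in Ctrl and 1.83, 0.0700 and 0.600 TPM in DPP3_KO. It was lower by limma as deposited (log2 change -3.11, adjusted p = 0.0145) and after scaling (-2.66, adjusted p = 0.0307). Its level was a small part of that of Ctsd in every library, at most 20.1 against 795 TPM in Ctrl replicate 2, and reads that fit both entries cannot be told apart here.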
